A study of Mus musculus with 9 samples.

Results

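The effect of skatole (Ska) added to LPS was measured by RNA-seq in RAW264.7 cells, a mouse macrophage line raised from an Abelson leukemia virus tumor. The genotype is labelled WT, a single transformed line stands here for macrophages, and treatment lasted 24 h in every group by the labels, while the methods text gives another time. The series holds 9 samples in 3 groups of 3, numbered 5, 6 and 7: DMSO alone, DMSO with LPS (called LPS below), and LPS with skatole (LPS + Ska). The skatole dose of these samples is not given in the sources used here. The 6 samples of LPS and LPS + Ska were compared, over the 12660 of 55401 listed genes whose mean TPM over those 6 columns was at least 1, and no measured difference entered this choice. TPM is a gene's share of the RNA of a sample after division by transcript length, scaled to a fixed total per sample, so it is a relative level and holds no read depth. In LPS and in LPS + Ska the column of replicate 5 is the mean of the other two, so each of these groups holds 2 independent values per gene and not 3.

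LPS, a component of the outer membrane of Gram-negative bacteria, binds Tlr4 on macrophages and turns on NF-kB, MAP kinases and AP-1 factors. It also turns on interferon beta, which acts back on the same cells through its receptor and induces the interferon-stimulated genes, many of them antiviral. Skatole is an indole made from tryptophan by gut bacteria, and indoles of this kind can bind the aryl hydrocarbon receptor (AhR). A separate stress pathway, led by the transcription factor Nrf2, induces enzymes that detoxify reactive molecules, recycle thioredoxin and glutathione, make NADPH and handle iron and haem.

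LPS + Ska differed from LPS in both directions. Some genes of detoxification, thioredoxin recycling, NADPH supply and iron export, several macrophage surface receptors, Lyz2 (lysozyme) and 9 of 86 cytosolic ribosomal protein genes rose. Many interferon-stimulated genes, several early growth response and AP-1 factors, the costimulatory ligands Cd80 and Cd83 and a few cytoskeletal genes fell. In all, 383 genes were called higher, 3.03% of the 12660 tested, and 669 were called lower, 5.28%, or 8.31% in either direction. Counts of calls in the lists below are to be read against these shares. A call needed a Benjamini-Hochberg adjusted p below 0.05 with limma on log2(TPM + 1) and a fold change above 1.5 or below 0.67, in each of 2 fits explained with the columns below. The larger of both adjusted p-values is printed, and a fold change on the log2(TPM + 1) scale understates the change of genes of low level. The median log2 fold change was 0.86 over the genes called higher and -0.81 over those called lower. Of the called genes, 144 rose by more than 1 and 196 fell by more than 1 on the log2 scale, and 9 and 17 passed 2.

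The split between both directions moved with the scaling. Of the called genes 36.4% were higher as deposited. After the columns were scaled by their median ratio 531 genes were higher and 451 lower, so 54.1% were higher. The median log2 fold change over all tested genes was -0.097 as deposited and -0.004 after this scaling, and changes near that size have no settled direction. The called-higher genes together took 36399 TPM with LPS against 71727 TPM with LPS + Ska, and the called-lower genes took 23349 TPM and 13156 TPM. In the plot of change against level, the called genes lie on both sides at every level, with more of the abundant ones above the line.

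**Figure D1:**
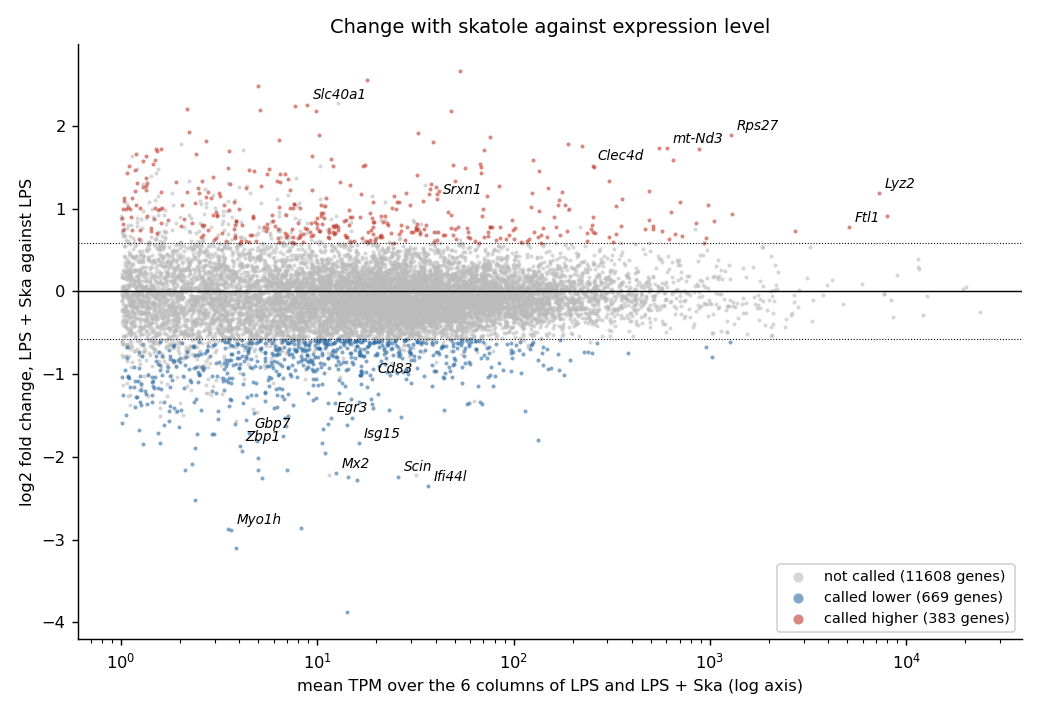
Each point is a gene, with its mean TPM over the 6 columns of LPS and LPS + Ska on a log axis and the log2 fold change of LPS + Ska against LPS on the vertical axis. Red points are the 383 genes called higher, blue points the 669 called lower and grey points the genes not called. Dotted lines mark fold changes of 1.5 and 0.67.

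The columns limit the precision of every value. In LPS and in LPS + Ska, replicate 5 was the mean of replicates 6 and 7 to within 1e-05 TPM, in 17950 of 17950 and 17658 of 17658 genes with both above 0. In DMSO a column was the mean of the others in only 7 to 10 genes. The first fit used the columns as deposited and the second used 2 recovered values per group. The recovered values were assumed to lie closer to replicate 5 than replicates 6 and 7 do. Where a column was at 0, another exceeded replicate 5 by up to 2.002 times its level in LPS and 2.0 times in LPS + Ska. A plain mean of values not below 0 would cap this at 1.0 times. How the columns arose is not given, so the recovered gaps and the p-values of the second fit rest on this assumption. For genes with no column at 0 the SD of the 3 columns equals the recovered gap. The labels do not say whether samples came from separate cultures, so p-values measure only the spread between samples, which may be technical. The median gap between the 2 recovered values was 4.63% of the level with LPS and 9.67% with LPS + Ska. It fell from 13.2% and 17.6% at a TPM of 1 to 5 to 2.39% and 6.81% at 100 TPM or more. Of the 12660 genes, 51.7% had columns that did not overlap between the groups, and so did 1044 of the 1052 called, so a lack of overlap alone says little here.

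The cell type label was checked with marker genes. Of 10 macrophage markers 9 passed the filter, and Mertk was listed at 0 in all 6 columns. The summed level of the markers was 7380 to 7770 TPM with LPS against 13700 to 13900 TPM with LPS + Ska. Most of it was Lyz2, which rose, and of the others only Fcgr1, which fell, was called. No marker of B cells, fibroblasts, epithelial or endothelial cells, neutrophils or erythroid cells passed the filter, and those lists summed to at most 2.19 TPM in any column of both groups. The erythroid list summed to 0.0734 to 0.206 TPM with LPS against 1.62 to 2.19 TPM with LPS + Ska. Lck, an Src-family kinase of the T cell list, was the only T cell marker tested, at 4.61, 4.78 and 4.45 TPM with LPS against 2.85, 2.55 and 3.15 TPM with LPS + Ska in replicates 5, 6 and 7 (adjusted p = 0.079), while Cd3e, Cd3d, Cd3g, Cd8a and Trac were listed at 0. The part of these markers in the results was not tested. In bulk samples, fewer cells of a kind and less RNA per cell cannot be told apart.

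Of the 12 largest rises outside small RNA genes, predicted genes and genes the paper names, 5 were in Rps27, Rps28, Rps29, Rpl39 and mt-Nd3, which are described with their lists, and others are given first. Values are given here and below as TPM in replicates 5, 6 and 7. Slc40a1 (ENSMUSG00000025993), which encodes ferroportin, the iron exporter of the cell surface, was 2.41, 2.43 and 2.395 with LPS and 15.3, 16.3 and 14.4 with LPS + Ska (log2 fold change 2.26, SE 0.091, adjusted p = 0.00012). DMSO cells held 11.7, 10.96 and 12.4 TPM, so its level with LPS + Ska lay above all columns of both other groups. Nme3 (ENSMUSG00000073435), a nucleoside diphosphate kinase, went from 2.02, 2.08 and 1.96 to 13.4, 13.2 and 13.5 (log2 fold change 2.25, SE 0.32, adjusted p = 0.011). Its DMSO columns spread widely, at 0.316, 1.15 and 3.06, and without a filter on low levels it was no longer called. Mettl7a1 (ENSMUSG00000054619), a methyltransferase-like protein, went from 2.26, 2.31 and 2.202 to 10.6, 10.7 and 10.4 (log2 fold change 1.83, SE 0.12, adjusted p = 0.00082) and was 8.07, 9.88 and 11.7 with DMSO. Mfsd4a, a membrane transporter of the major facilitator family, went from 1.09, 1.05 and 1.14 to 5.96, 7.96 and 3.97 (log2 fold change 1.69, SE 0.20, adjusted p = 0.0022). Procr, the endothelial protein C receptor, went from 4.05, 3.203 and 4.91 to 14.6, 14.8 and 14.5 (log2 fold change 1.64, SE 0.17, adjusted p = 0.0022). For Mfsd4a and Procr, which had 1.08, 1.27 and 0.888 and 2.98, 3.49 and 4.84 TPM with DMSO, the LPS columns lay within or near the DMSO range and the LPS + Ska columns lay above both.

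The largest falls were in a myosin, in interferon-stimulated genes and in genes barely present without LPS. Myo1h (ENSMUSG00000066952), an unconventional class I myosin, was 7.14, 7.35 and 6.94 with LPS and 0.106, 0.197 and 0.0142 with LPS + Ska (log2 fold change -2.88, SE 0.14, adjusted p = 0.00023), and it was listed at 0 in every DMSO column. Scin (ENSMUSG00000002565), which encodes the actin-severing protein scinderin, went from 43.2, 41.8 and 44.6 to 8.34, 8.36 and 8.32 (log2 fold change -2.24, SE 0.10, adjusted p = 0.00023). Rgs16 (ENSMUSG00000026475), a GTPase activator that shortens signals of G protein-coupled receptors, went from 24.3, 24.1 and 24.4 to 4.36, 4.95 and 3.77 (log2 fold change -2.24, SE 0.15, adjusted p = 0.00069). All 3 genes were under 1 TPM in every DMSO column, and with LPS + Ska Scin and Rgs16 kept a level between DMSO and LPS. Ifi44l (ENSMUSG00000039146), an interferon-induced gene, went from 61.7, 64.9 and 58.5 to 11.3, 13.2 and 9.51 (log2 fold change -2.35, SE 0.16, adjusted p = 0.00053), and its neighbour Ifi44 from 206, 210.5 and 202 to 58.5, 61.8 and 55.1 (log2 fold change -1.80, SE 0.16, adjusted p = 0.0022). Ifi44 was thereby still far above its DMSO level of 3.85, 2.13 and 4.27 TPM.

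Other genes of the 12 largest falls belong to the antiviral response. Ifit1, whose protein binds viral RNA caps, went from 9.29, 9.77 and 8.81 to 1.15, 1.13 and 1.18 (log2 fold change -2.26). Oasl2, of the 2',5'-oligoadenylate synthetase family, went from 8.75, 7.31 and 10.2 to 1.200, 1.600 and 0.801 (log2 fold change -2.15, SE 0.24, adjusted p = 0.0034), and was not called with a pseudocount of 0.1. Zbp1, a sensor of Z-form nucleic acids that can start necroptosis, went from 6.92, 4.898 and 8.95 to 1.12, 0.874 and 1.38 (log2 fold change -1.87, SE 0.20, adjusted p = 0.0016). In these 3 genes every DMSO column was under 1 TPM and the LPS + Ska columns lay between DMSO and LPS. Isg15, a ubiquitin-like modifier, went from 25.1, 23.3 and 27.03 to 7.28, 2.69 and 11.9 (log2 fold change -1.83, SE 0.44, adjusted p = 0.024). The LPS + Ska columns of Isg15 spread widely, and it was not called with a pseudocount of 0.1 or without a filter. Cmpk2, a mitochondrial nucleotide kinase next to Rsad2, went from 12.01, 10.7 and 13.3 to 1.92, 2.27 and 1.57 (log2 fold change -2.16, SE 0.26, adjusted p = 0.0051). Serpinb6b, an intracellular serine protease inhibitor, had a log2 fold change of -2.28, from 26.9, 26.4 and 27.5 to 4.75, 5.27 and 4.23, and DMSO cells held 7.21, 8.44 and 7.51 TPM. Of the 12 largest falls it was the only gene whose LPS + Ska columns all lay below its DMSO columns, and the plot of the deposited columns shows this.

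**Figure D2:**
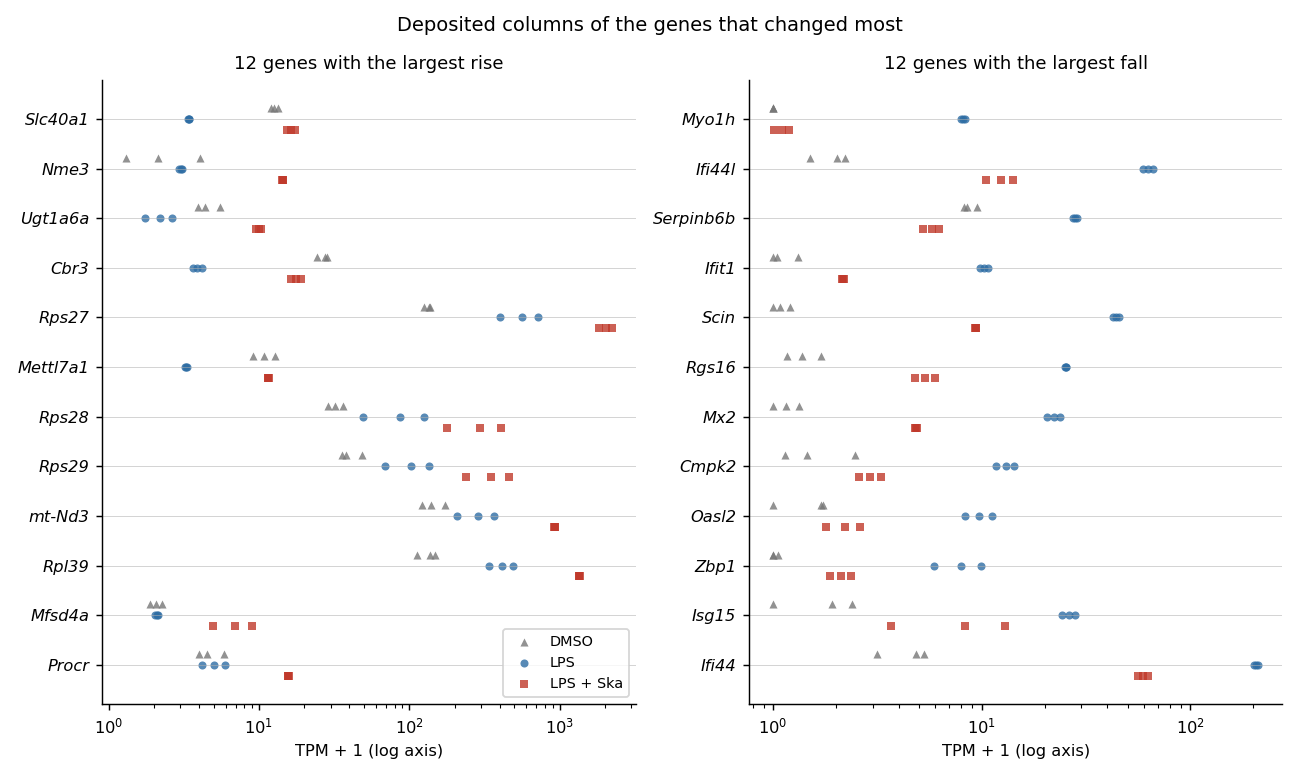
TPM + 1 on a log axis in each deposited column of the 12 genes with the largest rise (left) and the 12 with the largest fall (right), outside genes the paper names. Triangles are DMSO, circles LPS and squares LPS + Ska, with 3 columns each, of which those of LPS and LPS + Ska hold 2 independent values. The LPS and LPS + Ska columns of the 24 genes lie apart because the choice of genes required it.

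Promoters were searched for short motifs, since many of the genes that fell are interferon-stimulated. Each RefSeq promoter (GRCm38.p6) runs from 250 bases before to 50 bases after the gene start, and one was found for 8398 of 10382 protein-coding genes tested (80.9%), for 82.3% of those called higher and 80.3% of those called lower. The core of the interferon-stimulated response element, GAAA followed by any 2 bases and GAAA, on either strand, was found in 49 of 533 promoters of called-lower genes (9.19%). It was found in 4 of 279 promoters of called-higher genes (1.43%) and in 334 of 10713 promoters of all tested genes (3.12%). Genes can have more than 1 promoter in these counts, and a match is a description, not a binding site. The promoters of called-lower genes with the largest falls among those that hold the motif are shown to make its form visible, with every match in capitals.
Ifit1 (chr19:34640639-34640938, plus strand): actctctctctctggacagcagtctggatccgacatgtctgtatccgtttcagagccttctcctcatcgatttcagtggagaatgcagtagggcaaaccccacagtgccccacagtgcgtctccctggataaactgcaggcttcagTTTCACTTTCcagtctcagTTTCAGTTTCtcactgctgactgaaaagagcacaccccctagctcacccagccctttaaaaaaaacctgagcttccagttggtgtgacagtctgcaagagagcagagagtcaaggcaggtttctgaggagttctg
Isg15 (chr4:156200769-156201068, minus strand): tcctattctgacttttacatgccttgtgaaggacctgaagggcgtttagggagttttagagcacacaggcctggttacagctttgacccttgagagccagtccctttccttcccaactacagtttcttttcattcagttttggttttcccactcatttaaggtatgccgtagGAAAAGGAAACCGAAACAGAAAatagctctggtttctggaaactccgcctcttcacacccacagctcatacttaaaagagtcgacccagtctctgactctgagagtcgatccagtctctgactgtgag
Apol9b (chr15:77728822-77729121, plus strand): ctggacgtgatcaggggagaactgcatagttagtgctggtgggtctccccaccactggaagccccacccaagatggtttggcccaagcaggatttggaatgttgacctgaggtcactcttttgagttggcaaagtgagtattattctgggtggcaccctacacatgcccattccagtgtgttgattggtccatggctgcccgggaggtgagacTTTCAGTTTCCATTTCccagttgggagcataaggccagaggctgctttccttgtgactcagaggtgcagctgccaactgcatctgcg
The 2 matches of Ifit1 start at -104 and -85 relative to the gene start. Those of Isg15 overlap and start at -78, -72 and -66, and those of Apol9b overlap and start at -37 and -31. Apol9b, an apolipoprotein L family member with a near copy in Apol9a, had 10.7, 10.2 and 11.2 TPM with LPS against 2.63, 1.33 and 3.93 TPM with LPS + Ska (log2 fold change -1.75, SE 0.23, adjusted p = 0.0023). In the called-lower genes, matches were most frequent in the 50 bases before the start, with 15 of 533 promoters (2.81%) against 43 of 9901 promoters (0.434%) of genes not called.

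**Figure D3:**
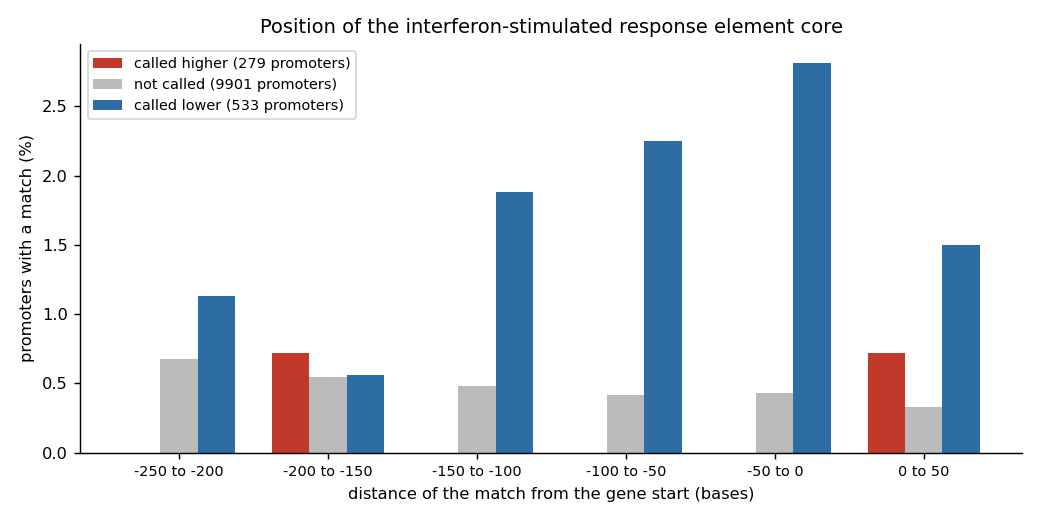
Share of promoters, in percent, with a match of the interferon-stimulated response element core in each window of 50 bases, by distance from the gene start. Red bars are called-higher genes (279 promoters), grey bars genes not called (9901) and blue bars called-lower genes (533). Blue bars are at 1.88%, 2.25% and 2.81% in the windows from -150 to 0, and grey bars stay between 0.333% and 0.677%.

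The motifs tied to AhR and Nrf2 were not more frequent in called-higher genes. The AhR core GCGTG was in 43.4% of called-higher, 49.7% of called-lower and 51.7% of all promoters. The antioxidant response element core TGACNNNGC, bound by Nrf2 with small Maf proteins, was in 12.5%, 15.2% and 14.3%. The NF-kB outline, GGG followed by any 5 bases and CC, was in 62.0%, 66.8% and 67.1%, and TATAAA was in 11.5%, 9.57% and 6.69%. Both strands were read, and matches of different motifs may overlap. The called-higher genes of the largest change with an AhR core and with an antioxidant response element core were Prss50 and Rps28, shown with the match in capitals.
Prss50 (chr9:110857714-110858013, plus strand): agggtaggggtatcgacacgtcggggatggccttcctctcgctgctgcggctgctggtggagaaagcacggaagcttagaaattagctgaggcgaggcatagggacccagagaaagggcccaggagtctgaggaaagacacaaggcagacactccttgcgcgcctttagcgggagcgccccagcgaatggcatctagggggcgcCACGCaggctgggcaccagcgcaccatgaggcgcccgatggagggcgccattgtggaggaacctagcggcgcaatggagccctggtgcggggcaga
Rps28 (chr17:33824513-33824812, minus strand): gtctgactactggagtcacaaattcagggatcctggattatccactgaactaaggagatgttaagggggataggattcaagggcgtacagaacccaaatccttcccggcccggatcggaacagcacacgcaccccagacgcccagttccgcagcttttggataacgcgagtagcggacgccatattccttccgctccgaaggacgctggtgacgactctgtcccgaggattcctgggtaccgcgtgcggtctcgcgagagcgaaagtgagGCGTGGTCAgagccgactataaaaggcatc
Prss50, a serine protease-like gene of low level, had 0.367, 0.742 and 0 TPM with LPS against 4.08, 3.75 and 4.401 TPM with LPS + Ska (log2 fold change 1.93, SE 0.25, adjusted p = 0.005). This is 1 of 2 promoters of the gene, with the match at -46. The match in Rps28 starts at 21 bases after the start. The absence of a match in a window says nothing of the factors.

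Several genes of detoxification rose. Of 22 tested genes for the reduction, hydrolysis and conjugation of quinones, carbonyls and epoxides, 8 were called higher, 36.4% against 3.03% over all genes. Their median log2 fold change was 0.27, against -0.097 over all genes. Cbr3 (ENSMUSG00000022947), which reduces carbonyls with NADPH, had 2.89, 2.62 and 3.16 TPM under LPS, 16.7, 18.1 and 15.3 TPM under LPS + Ska and 27.5, 23.5 and 26.4 TPM in DMSO, so the LPS + Ska columns lay between those of the other groups. Ugt1a6a (ENSMUSG00000054545), a glucuronosyltransferase that makes phenols soluble, went from 1.21, 1.66 and 0.757 to 8.94, 8.61 and 9.26 (log2 fold change 2.19, SE 0.18, adjusted p = 0.00081), above its DMSO level of 2.94, 4.504 and 3.38. It shares exons with Ugt1a7c, also called higher, so reads may be split between both. Ptgr1 (ENSMUSG00000028378), which inactivates reactive alkenals and leukotriene B4, went from 8.43, 7.46 and 9.405 to 25.9, 23.6 and 28.2 (log2 fold change 1.51, SE 0.11, adjusted p = 0.00048). The other called members were Nqo1, Akr1b8, Esd and Akr1b3.

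Some thioredoxin and NADPH genes rose. Of 19 genes of thioredoxin, peroxiredoxin, methionine sulfoxide reductase and superoxide dismutase, 6 were called higher and 1 lower, with a median of 0.05. These counts are 31.6% and 5.3%, against 3.03% and 5.28% over all genes. Srxn1, which restores oxidized peroxiredoxins, went from 25.3, 25.8 and 24.9 to 56.3, 63.8 and 48.8 (log2 fold change 1.11, SE 0.15, adjusted p = 0.0056). Prdx1, an abundant peroxidase of the cytosol, went from 885, 914 and 856 to 1700, 1773 and 1627 (log2 fold change 0.94, SE 0.054, adjusted p = 0.00023). Both had no overlap between the groups, as had 51.7% of all genes tested. DMSO cells held 79.9, 59.8 and 91.97 TPM of Srxn1 and 832, 843 and 905 TPM of Prdx1. Txnrd1, Txn1, Msrb1 and Msrb2 were also called higher. Msra, which repairs the S form of methionine sulfoxide while Msrb1 and Msrb2 repair the R form, fell from 5.29, 4.71 and 5.86 to 1.97, 1.26 and 2.69 (log2 fold change -1.10, SE 0.22, adjusted p = 0.018), and lost its call without a filter on low levels. Of 19 genes of NADPH supply, 4 were called higher, 21.1% against 3.03% over all genes. These were Idh1, from 112, 113 and 111 to 209.9, 218 and 202 (log2 fold change 0.90, SE 0.054, adjusted p = 0.00043), Pgd, from 259, 242 and 277 to 448, 431 and 465 (log2 fold change 0.79, SE 0.061, adjusted p = 0.00053), Me1, and Taldo1 of the pentose phosphate pathway. The list's median was 0.03 and turned to -0.01 once the trend with transcript length was removed.

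Iron and haem genes moved in both directions. Of 22 tested, 7 were called higher (31.8%) and 2 lower (9.1%), against 3.03% and 5.28% over all genes. The list median of 0.05 became -0.02 without the length trend. Besides Slc40a1 the higher ones were Hmox1, Slc48a1 (a haem transporter of the lysosome), Steap3 (a ferric reductase), Slc11a1 (a metal transporter of the phagosome), Blvrb and Ftl1. Blvrb (ENSMUSG00000040466), which reduces biliverdin after haem breakdown, went from 28.5, 27.8 and 29.2 to 84.1, 60.02 and 108 (log2 fold change 1.49, SE 0.17, adjusted p = 0.00055), with 155, 141 and 159 TPM in DMSO. Ftl1, the ferritin light chain, went from 3759, 3525 and 3994 to 6503, 5263 and 7742 (log2 fold change 0.77, SE 0.12, adjusted p = 0.0023), and was 12120, 12090 and 12640 with DMSO. Fth1, the heavy chain, had 9919, 10420 and 9416 with LPS and 13000, 13130 and 12870 with LPS + Ska, a fold change of 1.31 that lies under the limit for a call (adjusted p = 0.0084). The genes that fell were Cp, a ferroxidase, from 3.81, 3.904 and 3.72 to 0.99, 1.45 and 0.533 (log2 fold change -1.30, SE 0.19, adjusted p = 0.0076), and Lcn2, which binds bacterial siderophores.

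Genes near these pathways changed singly. Slc7a11 (ENSMUSG00000027737), the cystine importer that feeds glutathione synthesis, went from 27.8, 27.1 and 28.5 to 72.2, 81.02 and 63.4 (log2 fold change 1.34, SE 0.12, adjusted p = 0.0016), and DMSO cells held 5.65, 6.47 and 8.08 TPM. Of the 25 genes downstream of Atf4 tested, it was the only call upward, and Pycr1, of proline synthesis, fell from 5.33, 6.16 and 4.51 to 2.04, 2.08 and 1.99 (log2 fold change -1.05, SE 0.16, adjusted p = 0.01). The metal-binding Mt1 went from 554, 491 and 617 to 885, 805 and 965 (log2 fold change 0.68, SE 0.10, adjusted p = 0.0044) and Mt2 from 349.9, 295 and 404 to 588, 537 and 638 (log2 fold change 0.76, SE 0.11, adjusted p = 0.0023). Mt1 lost its call when the length trend was removed. In the same list of 18 genes the zinc transporter gene Slc39a11 fell (log2 fold change -0.84).

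No gene of the AhR list was called with limma. Of its 17 genes, 8 passed the filter, and 1 higher and 1 lower had an unadjusted p below 0.05 in both fits, which 10.7% of all genes tested had as higher and 23.5% as lower. Nqo1 and Ugt1a6a, which AhR can also induce, were kept in the detoxification list, and both were called higher (log2 fold change 1.72 and 2.19). The median of the AhR list was -0.02 as deposited and 0.08 after median-ratio scaling. The AhR chaperone Hsp90ab1 was the most abundant, with 2177, 2176 and 2178 TPM under LPS and 1641, 1655 and 1626 TPM under LPS + Ska (log2 fold change -0.41, SE 0.047, adjusted p = 0.0053), short of the fold limit. Cyp1a1 and Cyp1b1, the cytochrome P450 genes most used as AhR readouts, were listed at 0 in all 9 columns. Ahr itself was listed at 0.058, 0.046 and 0.07 TPM with LPS and at 0.24, 0.411 and 0.069 TPM with LPS + Ska, too low to be tested. Ahrr, the AhR repressor, had 0.89, 1.06 and 0.715 TPM with LPS against 0.618, 0.509 and 0.727 TPM with LPS + Ska, and its DMSO columns ran from 2.52 to 3.96 TPM.

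Most interferon-inducible GTPases tested fell. These large GTPases attack viruses and the vacuoles of intracellular parasites. Of 21 listed, 8 were tested and 6 were called lower, 75.0% against 5.28% over all genes, with a median of -1.07. Mx2 (ENSMUSG00000023341) went from 21.2, 22.8 and 19.6 to 3.83, 3.78 and 3.88 (log2 fold change -2.20, SE 0.13, adjusted p = 0.00052). Gbp7 (ENSMUSG00000040253) went from 7.41, 7.94 and 6.88 to 1.57, 1.88 and 1.27 (log2 fold change -1.71, SE 0.14, adjusted p = 0.0015). Irgm2 (ENSMUSG00000069874), a regulator of the immunity-related GTPases, went from 14.3 in each column to 5.29, 5.79 and 4.79 (log2 fold change -1.29, SE 0.13, adjusted p = 0.0034). In all 3 the DMSO columns lay below those of LPS + Ska. Irgm1, Gbp3 and Gvin1 were the further calls.

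Most Schlafen and Ifi200 genes tested fell too. Schlafen proteins restrict viral and cellular translation, and Ifi200 proteins bind DNA. Of 14 tested, 9 were called lower, 64.3% against 5.28% over all genes. None had a log2 fold change above 0, and the median was -0.85. Ifi211 went from 5.09, 4.297 and 5.88 to 0.833, 0.745 and 0.921 (log2 fold change -1.73, SE 0.16, adjusted p = 0.0022), Slfn8 from 9.17, 10.6 and 7.78 to 3.32, 4.28 and 2.36 (log2 fold change -1.25, SE 0.20, adjusted p = 0.008) and Ifi207 from 53.3, 51.2 and 55.4 to 23.7, 26.7 and 20.8 (log2 fold change -1.14, SE 0.13, adjusted p = 0.0033). For Ifi211 the LPS + Ska columns fell within the DMSO range of 0.957, 1.26 and 0.662 TPM. For Ifi207 they overlapped those of DMSO, at 16.1, 19.8 and 23.2 TPM. Members of both families have close copies, so reads may be split between them.

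A few genes of antigen display and costimulation fell. Of 23 genes of MHC class I presentation, 4 were called lower, 17.4% against 5.28% over all genes, with a median of -0.26. H2-T24, a non-classical class I gene, went from 62.95, 63.02 and 62.9 to 31.97, 33.3 and 30.7 (log2 fold change -0.96, SE 0.084, adjusted p = 0.0024), still far above the DMSO columns at 2.71, 2.89 and 2.23 TPM. Tap1, a subunit of the peptide transporter, went from 18.9, 19.1 and 18.6 to 10.9, 9.51 and 12.3 (log2 fold change -0.75, SE 0.11, adjusted p = 0.0073), and its LPS + Ska columns overlapped the DMSO columns of 14.1, 13.7 and 11.6 TPM. H2-Q6 was called lower too, but its columns overlapped, at 13.4, 19.5 and 7.29 with LPS and 6.004, 4.46 and 7.55 with LPS + Ska, and 10 alternatives ended its call. Of 14 costimulatory and checkpoint ligands, 3 were called lower. Cd80, a ligand of Cd28 and Ctla4, went from 41.3, 41.5 and 41.1 to 18.6, 18.2 and 18.9 (log2 fold change -1.11, SE 0.16, adjusted p = 0.011). The paper also reported less Cd80 with skatole, by RT-qPCR. Cd83 went from 26.2, 21.1 and 31.3 to 11.9, 11.3 and 12.6 (log2 fold change -1.05, SE 0.25, adjusted p = 0.044) and lost its call under 4 alternatives. Lgals9, a galectin that binds Havcr2, went from 88.97, 87.8 and 90.1 to 52.04, 54.4 and 49.7 (log2 fold change -0.76, SE 0.14, adjusted p = 0.026), against 2.84, 4.36 and 4.97 TPM in DMSO, and lost its call without the filter.

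Several early growth response and AP-1 genes fell. Of 18 of these transcription factors and their corepressors, 6 were called lower, 33.3% against 5.28% over all genes, with a median of -0.39. Egr3 (ENSMUSG00000033730) went from 17.9, 18.4 and 17.3 to 5.56, 5.77 and 5.34 (log2 fold change -1.52, SE 0.21, adjusted p = 0.009). Egr1 (ENSMUSG00000038418) went from 83.5, 73.1 and 93.8 to 31.7, 28.98 and 34.4 (log2 fold change -1.37, SE 0.18, adjusted p = 0.0058). Nab2, a corepressor that Egr1 induces, went from 47.1, 48.1 and 46.2 to 22.8, 21.03 and 24.6 (log2 fold change -1.02, SE 0.084, adjusted p = 0.0012). All 3 lay below their DMSO columns with LPS + Ska, and DMSO held 10.2, 15.6 and 21.8 TPM of Egr3, 53.97, 71.9 and 94.9 TPM of Egr1 and 36.8, 44.4 and 41.2 TPM of Nab2. Fosl1, Fosl2 and Junb were the other calls. Dusp1, a phosphatase that switches off MAP kinases, rose from 10.3, 10.1 and 10.5 to 18.6, 18.4 and 18.8 (log2 fold change 0.80, SE 0.13, adjusted p = 0.018), a call lost without the filter and the only one among 14 MAP kinase phosphatase and Sprouty genes.

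NF-kB pathway genes were mostly a little lower, and a single one was called. Of 26 subunits, inhibitors and kinases 24 had a log2 fold change below 0, with a median of -0.33 against -0.097 over all genes. The list median stayed between -0.35 and -0.24 under every setting tried. At an unadjusted limma p below 0.05 in both fits, 15 of the 26 were lower and 2 higher. Over all genes these shares were 23.5% and 10.7%. Nfkbie, an inhibitor of the IkB family, was the single call, from 10.7, 10.96 and 10.3 to 6.597, 7.29 and 5.91 (log2 fold change -0.62, SE 0.12, adjusted p = 0.029), and it was lost after median-ratio scaling. No Janus kinase or SOCS gene was called, with 4 of 14 lower at an unadjusted p below 0.05. The most abundant of them, the phosphatase Ptpn6, had 303, 287 and 319 with LPS and 226, 214 and 238 with LPS + Ska (log2 fold change -0.42, adjusted p = 0.0041), under the fold limit. Among 14 regulators of cytokine mRNA decay, Arid5a, which stabilises Il6 mRNA, fell from 1.98, 2.37 and 1.59 to 0.512, 0.0274 and 0.997 (log2 fold change -1.02, SE 0.23, adjusted p = 0.02).

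Lineage transcription factors split. Of 20 tested, 3 were called higher and 3 lower. Bhlhe41 went from 0.701, 0.803 and 0.598 to 2.38, 2.37 and 2.38 (log2 fold change 0.99, SE 0.12, adjusted p = 0.0054). It stayed far under its DMSO level of 9.55, 9.05 and 8.23 TPM. Cebpa was also called higher. Id2, an inhibitor of helix-loop-helix factors, fell from 71.1, 71.1 and 71.2 to 37.4, 42.2 and 32.6 (log2 fold change -0.92, SE 0.14, adjusted p = 0.01), below the DMSO columns, and Runx1 and Klf2 were also called lower.

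Some surface receptors of myeloid cells rose. Of 21 Fc, TREM, CD200R, CD300, PIR and LILR receptors and their C-type lectin partners, 5 were called higher and 1 lower, with a median of 0.33. These counts are 23.8% and 4.8%, against 3.03% and 5.28% over all genes. Clec4d (ENSMUSG00000030144), a lectin that binds mycobacterial glycolipids, went from 129.8, 134 and 126 to 375, 370.3 and 379 (log2 fold change 1.52, SE 0.044, adjusted p = 4.1e-05). It had the lowest adjusted p of the named genes and lay above its DMSO columns of 202, 207 and 209 TPM. Cd300c2, an activating CD300 receptor, went from 4.66, 4.396 and 4.91 to 10.4, 9.94 and 10.8 (log2 fold change 1.01, SE 0.12, adjusted p = 0.0051), and the inhibitory Cd300a from 8.64, 7.28 and 9.99 to 15.6, 18.3 and 12.9 (log2 fold change 0.78, SE 0.14, adjusted p = 0.0063). Both CD300 genes kept under their DMSO columns, which held 33.8, 35.4 and 25.9 TPM and 59.4, 64.3 and 70.4 TPM. Fcgr1, the high-affinity IgG receptor, fell from 34.1, 33.6 and 34.5 to 22.4, 22.6 and 22.1 (log2 fold change -0.59, SE 0.057, adjusted p = 0.0034), but close to the fold limit, and it was not called after median-ratio scaling.

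Some scavenger receptor and protease genes rose and others fell. Of 13 scavenger receptor and alternative-activation genes, 3 were called higher and 1 lower. Cd36, which takes up oxidized lipoproteins and fatty acids, went from 128, 133 and 123 to 257, 289 and 225 (log2 fold change 0.99, SE 0.14, adjusted p = 0.0079). Colec12 went from 29.5, 28.02 and 31 to 49.5, 53.9 and 45.1 (log2 fold change 0.72, SE 0.089, adjusted p = 0.0036). Ccl22, a chemokine of the same list, fell from 1.99, 1.59 and 2.39 to 0.343, 0.148 and 0.537 (log2 fold change -1.16, SE 0.18, adjusted p = 0.01) and was not called with a pseudocount of 0.1. Of 9 tested matrix metalloproteases, ADAMs and their inhibitors, 2 were called higher, Mmp12 and Mmp19, and 1 lower, the gelatinase Mmp9 (log2 fold change -0.84). Mmp12, the macrophage elastase, went from 3.26, 3.38 and 3.14 to 10.4, 11.8 and 9.07 (log2 fold change 1.42, SE 0.12, adjusted p = 0.0021) and was almost not found in DMSO, at 0, 0.0193 and 0 TPM. Cd36, Colec12, Ccl22 and Mmp12 had no overlapping columns, as had 51.7% of all genes tested. Mmp19 went from 1.599, 1.35 and 1.85 to 3.57, 4.25 and 2.88 (log2 fold change 0.81, SE 0.15, adjusted p = 0.018). Ctsl, a lysosomal cysteine protease, went from 184, 163 and 204 to 320.4, 292 and 348 (log2 fold change 0.80, SE 0.11, adjusted p = 0.0042), as the only call among 50 lysosomal genes, whose median was 0.01. Lipa, which hydrolyses cholesteryl esters in lysosomes, went from 177, 172 and 182 to 332, 368 and 296 (log2 fold change 0.90, SE 0.083, adjusted p = 0.00086). With LPS + Ska, Ctsl lay near or above its DMSO columns of 246, 250.4 and 309 TPM and Lipa below its own of 479, 504 and 555 TPM.

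Several lists held few calls among many genes without one. In the constitutive proteasome (33 tested) Psmb5 and Psma3 rose, by 0.78 and 0.69 on the log2 scale. The heat shock list (20 tested) held Dnajb4 (0.74) and Hsf1 (-0.59), the regulator of heat shock genes, which lost its call after median-ratio scaling. In the Bcl-2 family (14 tested) the pro-death Bax rose from 178, 169.7 and 187 to 295, 239.8 and 349.5, a call lost without LPS + Ska replicate 7, and Bcl2a1a and Bcl2a1d, pro-survival genes with near-identical copies, fell by 0.72 and 0.59 on the log2 scale, with the call of Bcl2a1d lost after median-ratio scaling. Of 12 unconventional myosins 4 were called lower and 1 higher, with Myo1d at 59.8, 60.6 and 59.1 against 28.5, 31.9 and 25.2 (log2 fold change -1.05, SE 0.12, adjusted p = 0.0036) and Myo9b at 39.8, 37.4 and 42.1 against 22.6, 22.6 and 22.7. Of 16 osteoclast genes, Myo1d and Atp6v0d2, a subunit of the proton pump, were called lower, the latter from 24.9, 26.6 and 23.3 to 12.1, 14.8 and 9.33 (log2 fold change -1.01, SE 0.16, adjusted p = 0.0074). Among receptors for purines and metabolites, Adora3 rose (0.91), a call lost without the filter, and Ada, which deaminates adenosine, fell (-0.65) but lost its call under 6 alternatives.

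Metabolic and growth lists held few calls. Of 46 genes of glycolysis and the TCA cycle only Suclg2, a succinyl-CoA ligase subunit, was called, from 63.2, 64.1 and 62.4 to 35.9, 36.7 and 35.1 (log2 fold change -0.80, SE 0.058, adjusted p = 0.00099). Of 34 genes of cholesterol and fatty acid synthesis 30 had a log2 fold change below 0 (median -0.21), and only Acaca passed (-0.66). Of 48 genes of DNA replication and mitosis 37 were below 0 (median -0.18), and only Mki67, the Ki-67 proliferation antigen, passed, from 132, 133 and 132 to 81.4, 96.3 and 66.5. The median over all genes was itself -0.097. At an unadjusted limma p below 0.05 in both fits, 14 of the 34 and 24 of the 48 were lower, against 23.5% over all genes. In each of these lists 1 gene was higher at that p, against 10.7% over all genes. Acaca and Mki67 have long transcripts and lost their calls when the length trend was removed. Further single calls were Ptger4, a prostaglandin E2 receptor (-0.65), Atg10 of autophagy (-1.03), Ppard (-0.61), and Itgax, the integrin of CD11c (0.71). Median-ratio scaling ended the calls of Acaca, Ptger4 and Ppard, and leaving out single columns ended that of Itgax.

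No gene was called by limma in 8 of the 47 lists, and the most abundant member of each is given. In the arginine, nitric oxide and polyamine list Odc1, the first enzyme of polyamine synthesis, had 738, 772 and 704 with LPS and 742, 763 and 721 with LPS + Ska, a log2 fold change of 0.009 whose sign turned under 3 alternatives. Of its 15 genes, 5 were higher and 3 lower at an unadjusted p below 0.05 in both fits, to be read against 10.7% and 23.5% over all genes. For the other lists the level with LPS is set against that with LPS + Ska, with the counts at the same unadjusted p. The chaperone Hspa5 of the unfolded protein response had 1813, 1773 and 1853 against 1901, 1959 and 1844, with 3 of 27 genes in each direction. Nars, a tRNA synthetase, had 362, 359 and 364 against 350.1, 349 and 351, with 11 of 20 lower and 0 higher. Hif1a had 145, 144 and 145 against 156, 174 and 138, with 3 of 19 lower and 0 higher. Cyba, a subunit of the phagocyte NADPH oxidase, had 391, 398 and 383 against 469, 384 and 554, with 3 of 7 in each direction. Actb had 3821, 3841 and 3801 against 3710, 3676 and 3745, with 8 of 42 actin cytoskeleton genes in each direction. The fold changes of Nars and Actb, -0.046 and -0.043, turned above 0 after median-ratio scaling. The plot of all 47 lists shows each member beside its list median.

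**Figure D4:**
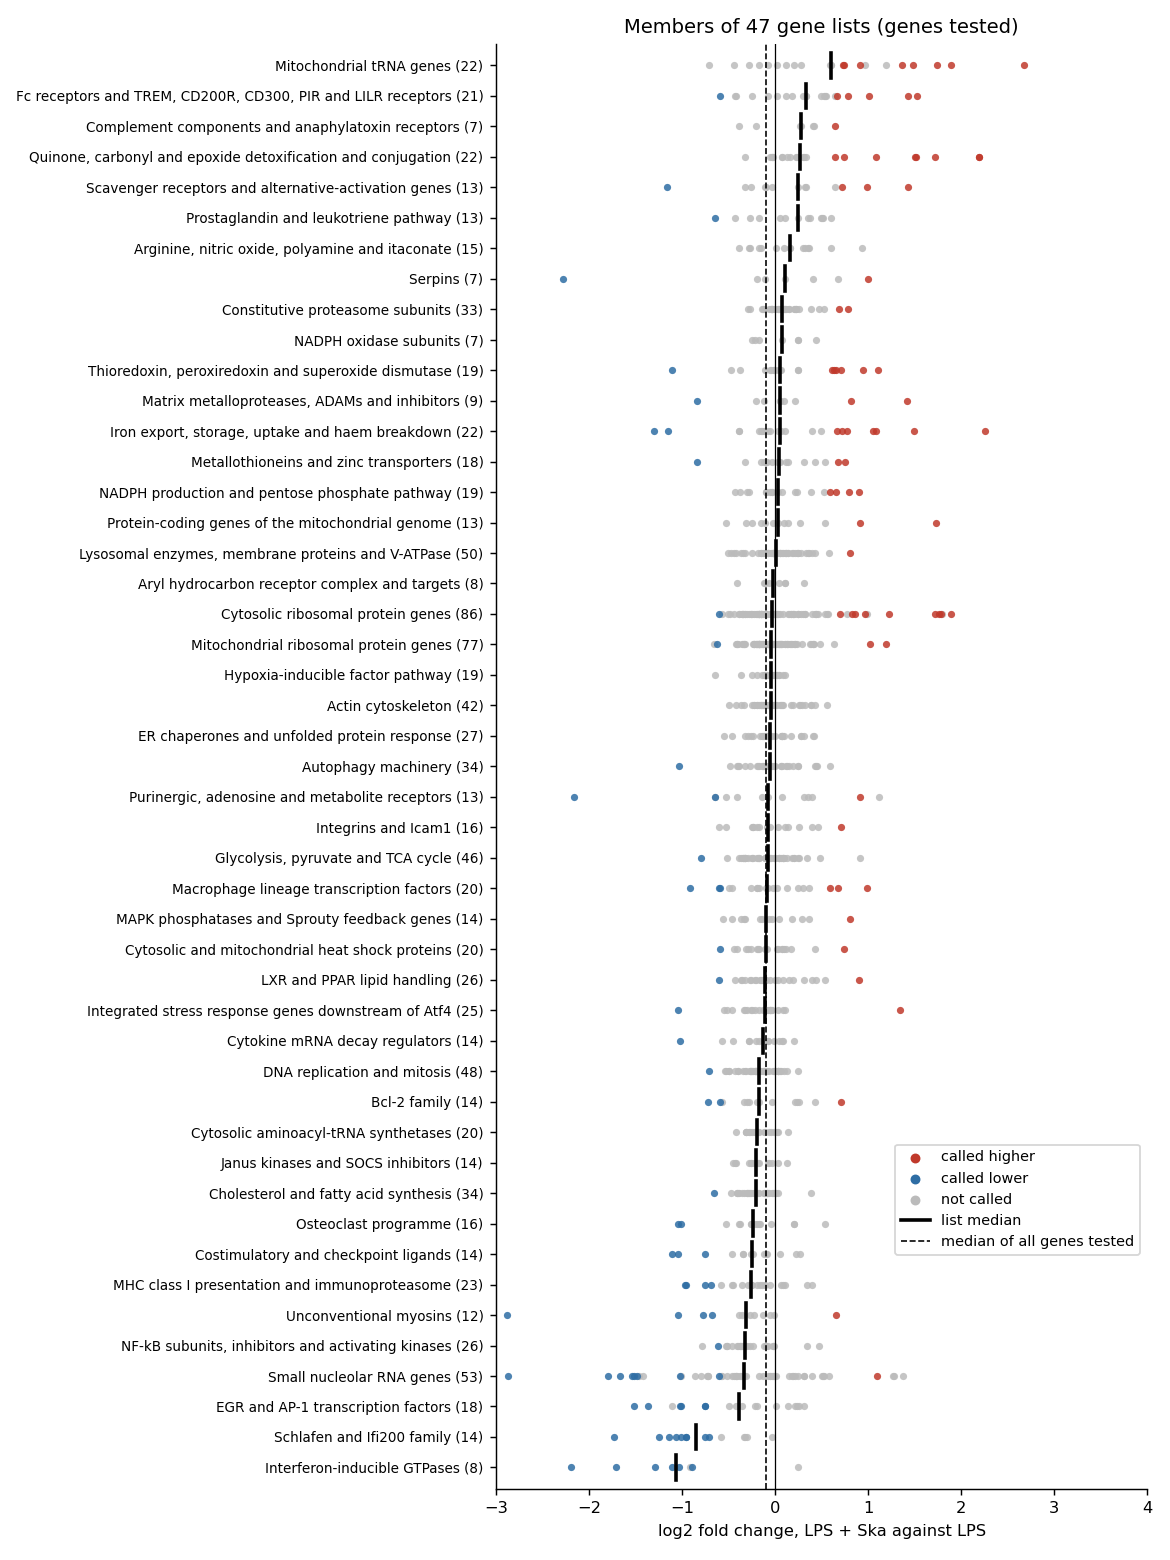
Members of 47 gene lists, with the number of genes tested in parentheses, by log2 fold change of LPS + Ska against LPS. Each point is a gene, red if called higher, blue if called lower and grey otherwise. The bar is the list median and the dashed line the median of all 12660 genes, -0.097. The list medians run from -1.07 for interferon-inducible GTPases to 0.60 for mitochondrial tRNA genes.

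Between LPS and LPS + Ska, ribosomal protein genes split by gene rather than moving as a body. Of 86 cytosolic ribosomal protein genes 9 rose by the call (10.5%) and 1 fell (1.2%), against 3.03% and 5.28% over all genes. Their log2 fold changes were above 0 in 41 and below in 45, around a median of -0.03. Rps27 (ENSMUSG00000090733) went from 558, 397 and 718 to 2015, 1820 and 2209 (log2 fold change 1.89, SE 0.18, adjusted p = 0.00023), against 135, 124 and 136 TPM in DMSO. Rps28 (ENSMUSG00000067288) went from 85.9, 47.9 and 124 to 293, 178 and 409 (log2 fold change 1.78, SE 0.35, adjusted p = 0.0059) and Rps29 (ENSMUSG00000034892) from 102, 68.2 and 135 to 346, 236 and 456 (log2 fold change 1.76, SE 0.28, adjusted p = 0.0021). Their LPS + Ska columns spread far more than those of Rpl39, which went from 413, 337 and 489.8 to 1348, 1339 and 1357 (log2 fold change 1.72, SE 0.13, adjusted p = 0.00043). Rps21, Rpl37a, Rps19, Rpl41 and Rplp2 were also called higher, and Rps10 lower. In all 4 genes with values the DMSO columns lay below those of LPS. In all 4, replicate 7 lay above replicate 6 in LPS and in LPS + Ska. The list summed to 89000 and 93000 TPM in LPS replicates 6 and 7, and to 82300 and 106000 TPM in those of LPS + Ska. The longest transcripts of Rps27, Rpl39 and Rps29 have 672, 612 and 461 nt, and that of Rps28 1443 nt. Calls upward were more frequent in short transcripts, as given below. The part of length or of replicate in these rises was not tested. In the mitochondrial ribosome (77 tested) Mrpl52 and Mrpl33 rose (1.19 and 1.02), and Mrpl48 was called lower but lost the call under 12 alternatives.

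Transcripts of the mitochondrial genome also split, while their summed share of TPM was 10.06% to 10.68% with LPS and 9.94% to 11.88% with LPS + Ska. Of 13 protein-coding genes 2 were called higher, mt-Nd3, from 286, 207 and 366 to 928, 921 and 934 (log2 fold change 1.73, SE 0.19, adjusted p = 0.001), and mt-Atp8, from 5534, 5660 and 5407 to 10490, 11930 and 9045 (log2 fold change 0.91, SE 0.12, adjusted p = 0.0034). mt-Atp8 overlaps mt-Atp6, so its reads are shared. Of 22 mitochondrial tRNA genes 8 were called higher, 36.4% against 3.03% over all genes, with a median of 0.6. mt-Tp went from 14.5, 8.298 and 20.8 to 92.1, 86.4 and 97.7 (log2 fold change 2.67, SE 0.29, adjusted p = 0.0014), mt-Td from 3.799, 3.05 and 4.55 to 16.7, 16.8 and 16.6 and mt-Te from 256, 202 and 311 to 846, 812 and 879.7. These genes are 67 to 70 nt long, so TPM divides by a very short length and few reads can move it. Of 53 small nucleolar RNA genes found by symbol 8 were called lower and 1 higher (median -0.34), with Snord70 at 16.8, 15.5 and 18.02 against 4.64, 5.603 and 3.68 (log2 fold change -1.67, SE 0.20, adjusted p = 0.0042). The whole annotated class of small nucleolar and Cajal body RNAs was split more evenly. Of its 124 tested genes 10 were called lower and 8 higher (median -0.2). Snord78 had 6.92, 7.01 and 6.83 against 0.0809, 0.0885 and 0.0734, but its DMSO columns alone ran over 0.13, 3.37 and 6.704 TPM. These RNAs lie in introns of host genes, and whether the counting used strand is not given in the sources used here.

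Calls varied with transcript length. The longest annotated transcript had a median of 1240 nt in called-higher genes, 3240 nt in called-lower genes and 2917 nt in all tested genes. Under 600 nt, 95 of 1039 genes were called higher (9.14%) and 82 lower (7.89%). At 4000 nt or more, 46 of 3913 were called higher (1.18%) and 258 lower (6.59%), with a median log2 fold change of -0.18. Removal of the length trend from each column left 327 genes higher and 639 lower, of which 310 and 547 were among the calls as deposited. By level, 4.14% of the 1666 genes at 100 TPM or more were called higher and 1.86% lower, whereas at 5 to 20 TPM it was 3.28% and 7.77%. The cause of this pattern was not tested. By class of gene, 254 of 10391 protein-coding genes were called higher and 512 lower, as were 67 and 72 of 1143 pseudogenes and 33 and 35 of 664 long noncoding genes.

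**Figure D5:**
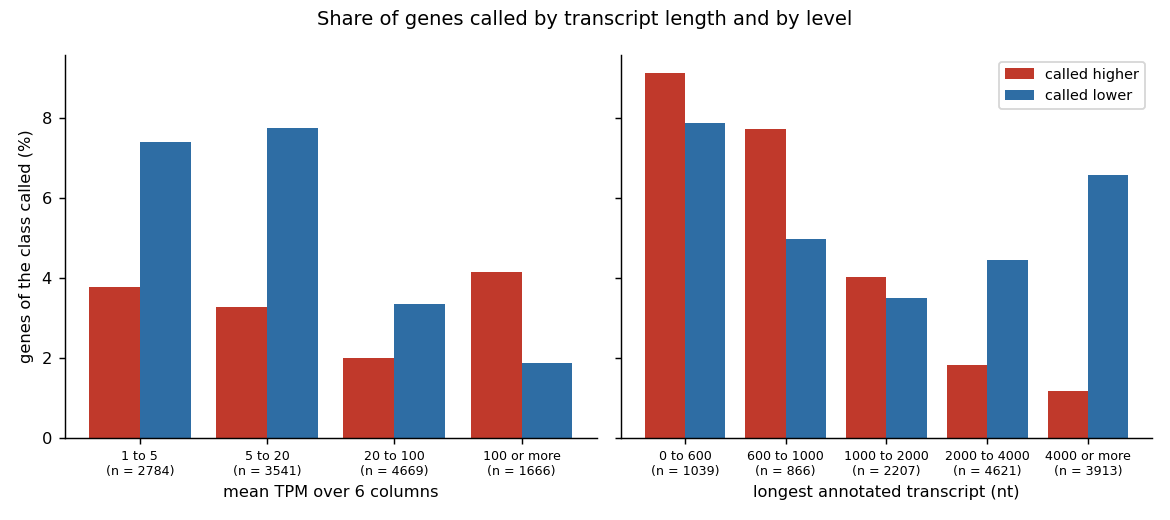
Share of tested genes called higher (red) or lower (blue), in percent, by mean TPM over the 6 columns (left) and by the length of the longest annotated transcript (right), with the number of genes in each class. The share called higher falls from 9.14% under 600 nt to 1.18% at 4000 nt or more.

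By difference in mean TPM, a relative level, Lyz2 gained most. Lyz2 (ENSMUSG00000069516), the lysozyme of macrophages, went from 4423, 4627 and 4219 to 10060, 9915 and 10210 TPM (log2 fold change 1.19, SE 0.058, adjusted p = 0.00014), which brought it over its DMSO columns of 8913, 8866 and 9673. mt-Atp8, Fth1, Ftl1 and the annotated pseudogene Gm28661, at 10250, 10620 and 9881 against 12590, 13310 and 11870 TPM, followed. The largest losses of TPM were in mt-Co1, Eef1a1, mt-Cytb, Gm28439 and mt-Nd4l, and none of them was called. mt-Co1 had 25590, 27080 and 24100 with LPS and 21650, 24610 and 18700 with LPS + Ska, so the columns overlapped. Eef1a1, the translation elongation factor, had 13290, 13400 and 13180 against 10940, 10960 and 10930 (log2 fold change -0.28, SE 0.051, adjusted p = 0.026), a small but even shift. Gm28661, Gm28439 and mt-Nd4l share sequence with mitochondrial genes or overlap one, so their values are uncertain.

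Some genes that changed lie side by side. Among 11868 tested genes placed on RefSeq positions (GRCm38.p6), 12 runs of at least 3 adjacent tested genes were called in the same direction, 10 of them lower. The longest held 8 genes at chr1:173723424-174001983, from Ifi207 through Ifi204, Ifi203-ps, Mndal, Ifi211, Ifi203 and Ifi202b to Gm18445, with log2 fold changes from -1.73 to -0.73. Gm2427, Sp110, Sp140 and Sp100 lay at chr1:85496430-85709998 and fell by 1.03 to 0.69 on the log2 scale. Slfn5, Slfn9 and Slfn8 at chr11:82951349-83020810, Id2, Rsad2 and Cmpk2 at chr12:25093799-26479837, and Parp14, Dtx3l and Parp9 at chr16:35831892-35972621 were further runs that fell. The 2 runs that rose were Gm7329, D630023F18Rik and Idh1 at chr1:65095225-65186479 and Ninj1, Card19 and Susd3 at chr13:49187529-49248706. The log2 fold changes of the latter ran from 0.63 to 1.05, and Ninj1 encodes the protein that ruptures the membrane of dying cells.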

How the data were processed

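RNA from 9 samples of RAW264.7 cells (DMSO, LPS and LPS + Ska, 3 each) was sequenced by the study as total RNA libraries. The authors deposited TPM values for 55401 genes listed by Ensembl identifier. The submitters' processing notes name fastp 0.20.1, HISAT2 2.2.1, StringTie 2.0 and mm10, and the paper's text does not describe how the tied columns arose. TPM keeps no depth, so no counting error could be given. Symbols matched 55141 identifiers. Groups came from the sample titles.

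The authors' columns were transformed to log2(TPM + 1) and fitted with limma 3.58.1 in R 4.3.3 (lmFit, eBayes with an intensity trend) with all 9 columns, for genes whose TPM over LPS and LPS + Ska averaged 1 or more. A further fit used the 2 recovered values, assumed to lie 0.5 of the column difference above and below replicate 5. The column difference is that from replicate 5 to the highest column of the group. P-values were adjusted by the Benjamini-Hochberg method over all genes tested. Fold changes and SE come from the deposited columns. In 10 simulations on the 12660 genes of this comparison, 200 genes were changed by 1.5 on the log2 scale, raised and lowered in equal number. Of the raised genes 88.3% were recovered, and 0.042% of unchanged genes were called. Genes were drawn independently, with the same spread in all groups, and the tie was built as the recovery assumes. The data differ, with a wider gap in LPS + Ska than in LPS and more genes called than the 200 changed here. These shares are therefore not error rates of the calls reported. Recovery of the lowered genes was not counted.

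Deviations from group means correlated at 0.383, 0.154 and 0.131 for same-numbered LPS and LPS + Ska columns. The tie makes these less than 3 separate pairs, so no pairing by number was assumed.

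The comparison and the gene lists were chosen with earlier results of these data known. Named genes were the 12 largest called changes in each direction with columns apart and at least 5 TPM, up to 3 called members per list or its most abundant gene, and the 5 largest TPM gains and losses. Predicted genes, small RNA genes and genes the paper names were left out of the 12. Genes the paper names were also left out of the list picks, except Cd80 and Bax. Some of those left out are given by name, at times with a log2 fold change. A few genes are not reported here. The promoters of Isg15 and Apol9b were added after their values were seen. Transcript lengths and classes came from GENCODE, promoters and positions from RefSeq (GRCm38.p6). Plots were made in Python 3.11.15 (matplotlib 3.10.9). Alternatives were another pseudocount, filter, scaling, set of samples, trend or block, other calling limits and each column left out, and, chosen after seeing the data, removal of length or GC trends and each recovered value left out.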

Additional observations from a re-analysis of the deposited data

How the results depend on the processing

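Counts depended most on the calling limits and on the recovered values, and the split between directions on the scaling. The adjusted p alone gave 790 genes higher and 1668 lower, and a fold change of at least 2 gave 140 and 190. Over the 47 lists, 74 genes were called higher and 68 lower, which became 138 and 181 with the adjusted p alone and 30 and 32 at a fold of at least 2. Leaving out each column or recovered value in turn gave 140 to 432 genes higher and 159 to 765 lower, and 42 to 78 and 20 to 72 over the lists. The lowest counts come from leaving out a recovered value, which leaves a group with 1 value assumed to vary like the others. Without the first or the second value of LPS, 140 and 179 genes were higher and 159 and 184 lower, and without those of LPS + Ska, 222 and 181 were higher and 407 and 267 lower. With deposited columns left out, counts stayed at 337 to 432 and 553 to 765. When an LPS or LPS + Ska column was left out, the fit of the recovered values stayed as it was. By the tie, the columns kept also still held both values, so these counts say little of stability. Fits of the deposited columns alone called 454 and 815, and those of the recovered values alone 393 and 676. Median-ratio scaling gave 531 and 451, or 54.1% higher against 36.4%, and was the only setting with more genes higher than lower. Other counts were within 1.5 times those reported. With a replicate block the counts were 385 higher and 660 lower, of which 381 and 660 were also called without it.

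In the 250 bases before the start alone, the AhR core was in 36.6% of promoters of called-higher, 41.8% of called-lower and 45.6% of all tested genes. In the same order the antioxidant response element core was in 8.96%, 11.8% and 11.6%, and the NF-kB outline in 57.0%, 62.5% and 61.1%. The interferon-stimulated response element core was in 0.717%, 7.88% and 2.68%.

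Of 102 named genes with a call, 65 kept it under all 21 alternatives other than calling limits and left-out recovered values, 11 kept it wherever they were tested but fell under the filter of a mean TPM of at least 5, and 26 lost it under at least 1. The 21 include the fits of the deposited columns alone and of the recovered values alone, which every call passes by definition. They also include those without an LPS or LPS + Ska column, which leave the second fit as it was. A call kept under the 21 can still end when a recovered value is left out, which leaves 1 value in a group. The calls of Egr3, Cd80, Isg15 and Nme3 ended whichever recovered value was left out. Signs turned in 3 named genes without a call. Nars and Actb became 0.05 and 0.06 after median-ratio scaling, and Odc1 became -0.02 without LPS replicate 7, -0.01 without LPS + Ska replicate 6 and -0.03 without the length trend, with 0.04 the highest value when single columns were left out.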
